A study of Rattus norvegicus with 4 samples.

Results

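Hypothalamic gene expression was compared between high-fat-fed and standard-fed adult rats that had been undernourished before birth. The comparison uses 2 of the 4 samples of the study, FR30 HF and FR30 standard, and its genes were those with a detection p under 0.01 in both, which were 10177 of 21397 genes with a name on the array. The whole array was covered, and genes are ranked below by the size of their difference. The gene lists were chosen with earlier results of these data known, and some genes were named after their values were seen.

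The study measured total RNA of isolated hypothalami with Illumina rat bead arrays, where RNA copies bind short DNA probes carried by beads. All samples came from male Wistar rats aged 4 months and were labelled with biotin in the same way. The 4 groups, each 1 sample, were FR30 HF (prenatally undernourished offspring, high-fat diet), FR30 standard (prenatally undernourished offspring, standard diet), control HF (control offspring, high-fat diet) and control standard (control offspring, standard diet). The sources used here do not give how many rats a sample holds, what the undernutrition consisted of or how long the diets lasted. With 1 sample per group no difference below has a replicate check, so no test was made and no p-value for a difference is given. Values marked ± carry the SD that the authors deposited beside each normalized signal. The sources used here do not say what that SD was taken over, or over how many values. Differences are log2 values of background-corrected, quantile-normalized signals, FR30 HF minus FR30 standard unless another pair is named, so that 1 stands for 2-fold. Signals are the authors' normalized bead intensities on a linear scale. Because the log2 differences were taken after background correction, they are larger for dim genes than the ratio of the printed signals.

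The hypothalamus joins appetite, body temperature, growth, stress and reproduction through small groups of peptide-making neurons. In its arcuate nucleus, Pomc neurons restrain feeding and Agrp neurons, which also make Npy, promote it, and both read hormones of the fat stores and the gut. Dopamine neurons of the same region inhibit prolactin release from the pituitary. The tissue borders the thalamus above, the pituitary below and the third ventricle with its choroid plexus in the midline, so that a dissected piece can carry RNA of its neighbours.

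The tissue label was checked against 13 hypothalamic markers. Of these, 12 were detected in each of the 4 samples, and Sim1, a transcription factor of the paraventricular nucleus, was not detected in any. Pmch, the precursor of melanin-concentrating hormone, had a signal of 39312 ± 941 in the FR30 HF sample and 38931 ± 2466 in the FR30 standard sample, and Avp, the vasopressin precursor, had 16888 ± 540.0 in the FR30 HF sample and 16155 ± 923 in the FR30 standard sample. The summed signal of the 13 markers was 80056 in the FR30 HF sample and 77292 in the FR30 standard sample. Probes detected at p under 0.01 numbered 10712 in FR30 HF, 10579 in FR30 standard, 11122 in control HF and 10776 in control standard. Per sample, the median deposited SD came to 3.20% to 3.41% of the signal.

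Most genes differed little between the diets. Of the 10177 detected genes, 69.0% lay within 0.1 of 0, the SD over genes was 0.14 and the central 95% of the differences ran from -0.26 to 0.25. Only 33 genes, 0.324%, differed by 1.5-fold or more (0.58 on the log2 scale), of which 20 (0.197%) were higher in FR30 HF and 13 (0.128%) were lower. A difference of 2-fold or more was reached by 7 genes on the higher side and 5 on the lower. At 1.2-fold (0.26), the smaller size used for gene lists below, 221 genes (2.17%) were higher and 241 (2.37%) were lower. Of all genes 48.6% were above 0 and 51% below it, and the list counts below stand beside these shares. Of 4 groups of genes by brightness, the dimmest held 107 of the 221 and 140 of the 241, and the brightest held 15 and 13. The last genes inside 1.5-fold were Ttk (0.59) and Slfn3 (-0.59), and the first outside were Smyd1 (0.58) and Fam180a (-0.58), so the boundary falls where values lie close together. Of the 33 genes, 17 also passed 1.5-fold in the authors' normalized signals, and 16 did not, among them Tmem243, Sstr1, Slc22a2, Ptgr2, Gpd1 and Gpx2 on the higher side and C10h17orf75, Tnrc6a, Prl, Mybpc1, RT1-CE7 and Slfn3 on the lower. In those signals 59 genes were past 1.2-fold higher and 58 lower, and of the 86 named genes past 1.2-fold 44 lay inside it there, none with the other sign.

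**Figure D1:**
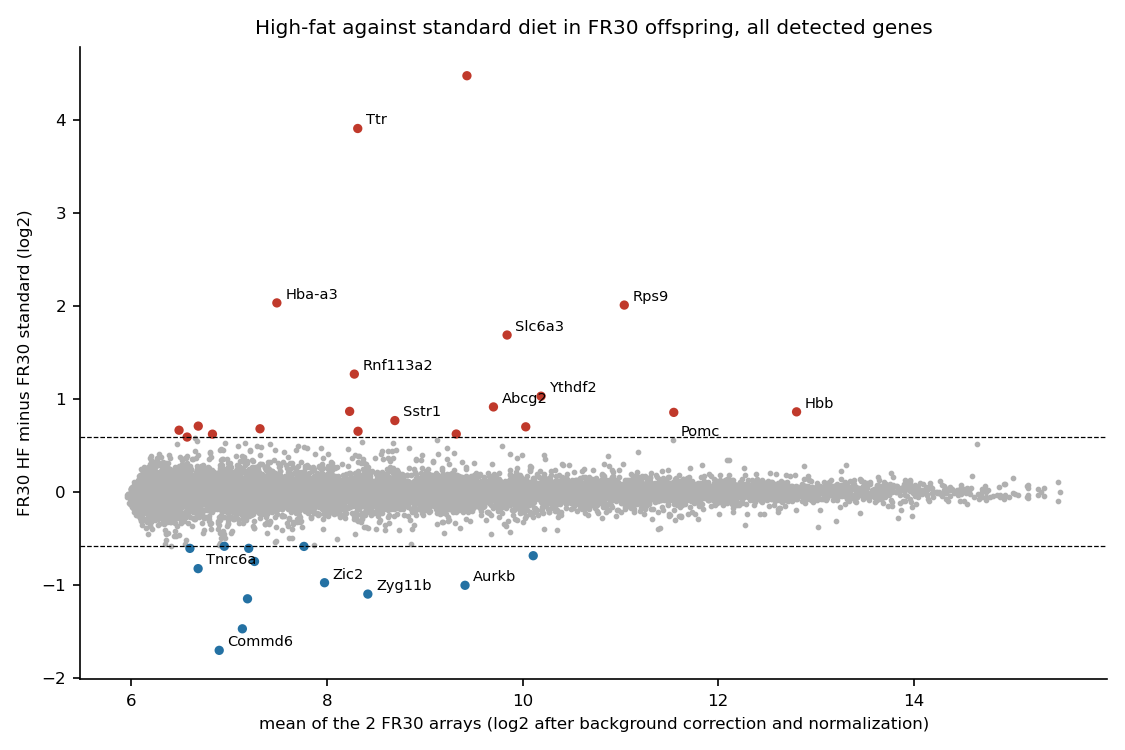
Each point is 1 of the 10177 genes detected in both FR30 samples, placed by its mean level (horizontal axis, log2) and by its FR30 HF minus FR30 standard difference (vertical axis, log2). Dashed lines mark 1.5-fold, red points are the 20 genes above it and blue points the 13 below. The spread narrows toward bright genes, and few points stand clear of the band.

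The largest difference of a gene with a known neuronal role was that of Slc6a3, the dopamine transporter that takes dopamine back into the neuron. Its signal was 1642 ± 33.7 in the FR30 HF sample and 593 ± 13.7 in the FR30 standard sample, a 3.21-fold and log2 1.68 difference. In the control pair it was 357 ± 10.1 in the control HF sample and 370.2 ± 12.2 in the control standard sample, a log2 difference of -0.07. Both FR30 samples were thus above both control samples, and FR30 HF stood alone at the top. Th, the rate-limiting enzyme of dopamine synthesis, had 1189.9 ± 21.6 in the FR30 HF sample and 940.4 ± 22.1 in the FR30 standard sample, a log2 difference of 0.39, against 0.02 between the control samples. Slc18a2, which loads dopamine into vesicles, had 798 ± 57.9 in the FR30 HF sample and 624 ± 17.0 in the FR30 standard sample and differed by 0.41, against -0.05 in controls. For these enzymes and carriers FR30 HF was again the highest of the 4 samples.

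All 10 detected dopamine neuron markers were above 0, and 3 of them passed 1.2-fold. Their median was 0.16, or 0.14 without Slc6a3, and it was -0.02 in the control pair. Over all genes 48.6% were above 0 and the median was -0.0024. Ret, the receptor for GDNF-family growth factors, was at 0.25, and Aldh1a1, an aldehyde dehydrogenase found in a subset of dopamine neurons, at 0.19 with 4002 ± 138 in the FR30 HF sample and 3509.6 ± 15.5 in the FR30 standard sample. Ddc, which makes dopamine from L-DOPA, was below detection in every sample of the study. The list was written with the Slc6a3 value known and does not support its direction. In RNA of a whole tissue piece, more cells of a type and more RNA per cell cannot be told apart, and whether dopamine neurons outside the hypothalamus were dissected along was not tested.

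**Figure D2:**
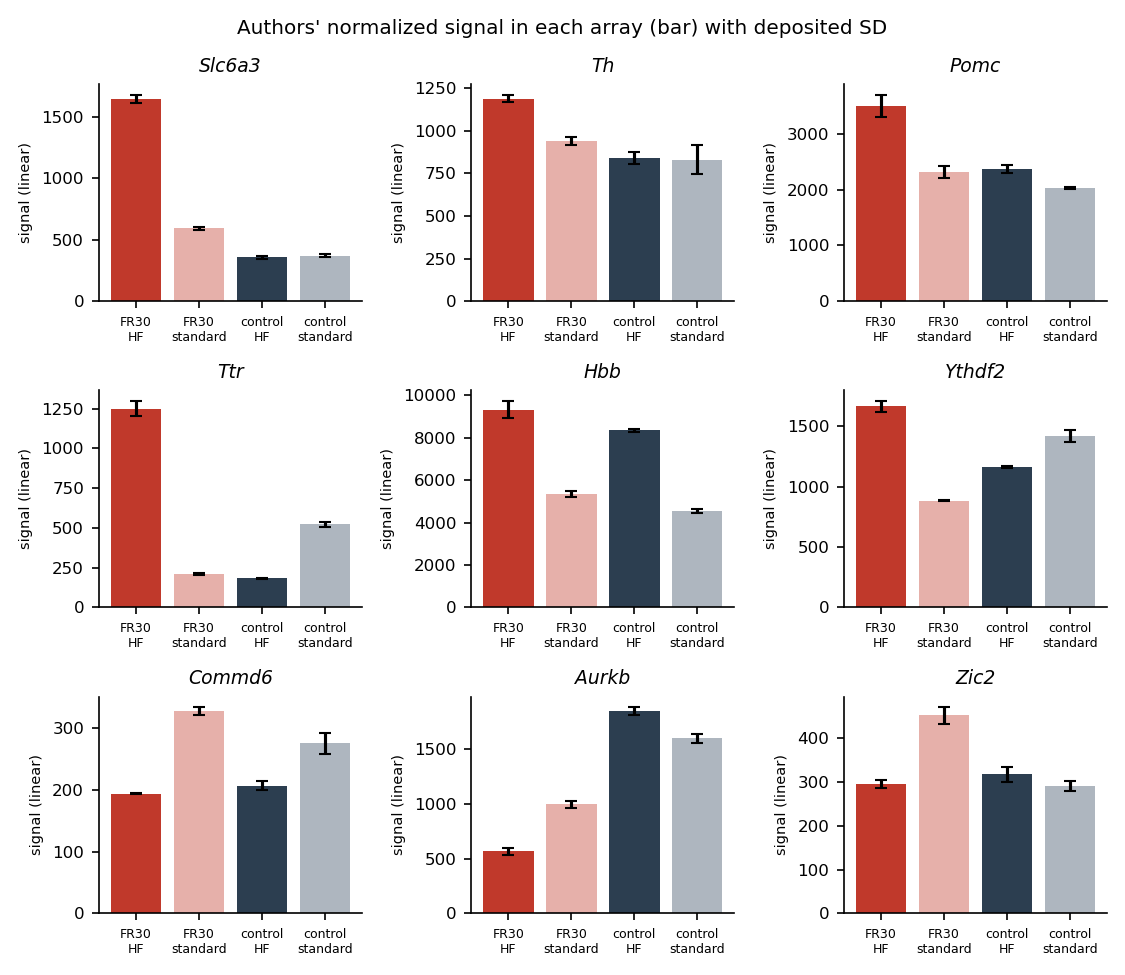
Bars give the authors' normalized signal (linear scale from 0) of 9 genes in the 4 samples, in the order FR30 HF, FR30 standard, control HF, control standard, and error bars give the deposited SD. Slc6a3, Th, Pomc and Ttr were highest in FR30 HF, Commd6 was low in both HF samples, and Aurkb was lowest in FR30 HF.

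Among the arcuate feeding genes, Pomc, from which the appetite-reducing peptide alpha-MSH is cut, stood furthest from 0 and just outside 1.5-fold. Its signal was 3497 ± 199 in the FR30 HF sample and 2318 ± 113 in the FR30 standard sample, a log2 difference of 0.55, and it ran from 0.53 to 0.59 over the processing settings tried. The control samples had 2368 and 2029 in HF and standard order, on either side of the FR30 standard value. Agrp, the melanocortin antagonist of the hunger-promoting neurons, differed by 0.14 and Npy, made by the same cells, by 0.12. Cartpt, a satiety peptide made beside Pomc, was at 0.06 and Mc4r, the receptor on which alpha-MSH and Agrp compete, at 0.01. Of the 10 detected genes of this list 6 were above 0 and Pomc alone passed 1.2-fold, with a list median of 0.03. Pomc is also made in the pituitary, whose Tshb (the thyrotropin beta subunit) was at 0.25 and whose Prl was lower, as given below. The lateral hypothalamic peptides Pmch and Hcrt (orexin) differed by 0.06 and 0.00.

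Peptides outside the arcuate feeding circuit differed in both directions. Galp, a galanin-like peptide of the arcuate nucleus, had 401 ± 4.91 in the FR30 HF sample and 337 ± 10.7 in the FR30 standard sample and differed by 0.40, against -0.07 between the control samples. Nmu, neuromedin U, a peptide that reduces feeding in rodents, had 1627 ± 40.1 in the FR30 HF sample and 1927 ± 41.2 in the FR30 standard sample, a difference of -0.29 in FR30 offspring and 0.30 in controls. Trh, which drives thyrotropin release, differed by 0.18. The other releasing and posterior pituitary hormones lay closer to 0 or below it, with Ghrh at -0.15, Sst at -0.13, Crh at -0.10, Oxt at -0.07 and Avp at 0.00. The 8 detected genes of that list had 5 below 0 and a median of -0.09, with 1 member, Nmu, past 1.2-fold.

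Of the neuropeptide receptors, Sstr1, one of the inhibitory receptors for somatostatin, was past 1.5-fold. It had 619 ± 19.4 in the FR30 HF sample and 421 ± 12.1 in the FR30 standard sample, a log2 difference of 0.76, and 543 ± 19.5 in the control HF sample and 607 ± 21.0 in the control standard sample. The FR30 standard sample was the lowest of the 4 for Sstr1, while FR30 HF was close to the control standard value. Galr2, a galanin receptor, was at 0.24 and Nmbr, the neuromedin B receptor, at -0.28. Of the 14 detected receptors 9 were below 0, with a median of -0.03. The leptin receptor Lepr, the insulin receptor Insr and the leptin-induced inhibitor Socs3 did not reach detection in both FR30 samples, so that no difference is given for them. Of the 22 detected genes of leptin, insulin and AMPK signalling, Prkaa1 (the catalytic AMPK subunit alpha 1, 0.27) passed 1.2-fold on the higher side and Stat5b, a cytokine-signalling transcription factor, at -0.28 on the lower.

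Genes of neighbouring tissues and of blood gave several of the largest differences. Ttr, the thyroid hormone and retinol carrier that the choroid plexus makes in bulk, had 1251 ± 49.1 in the FR30 HF sample and 209 ± 8.19 in the FR30 standard sample, a log2 difference of 3.91. The control pair ran the other way, with 183 ± 4.59 in the control HF sample and 523 ± 14.9 in the control standard sample, where it was not detected in control HF and at least 7.90-fold lower there. The FR30 HF sample was thus the brightest and the FR30 standard sample near the detection limit. Of the 8 detected choroid plexus markers 6 were above 0 and 2 passed 1.2-fold, Ttr and Otx2 (0.28), a transcription factor of that epithelium. The list median was 0.08, or 0.03 without Ttr. Clic6, an intracellular chloride channel protein of that epithelium, was detected in FR30 HF (202) and not in FR30 standard (187). Folr1, Kcne2 and Kl, other genes of that epithelium, were not detected in either FR30 sample. The summed signal of the 5 defining choroid markers was 1952 in FR30 HF, 902 in FR30 standard, 893 in control HF and 1204 in control standard. Between the FR30 samples most of this gap was Ttr, and the part of choroid tissue in the result was not tested.

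Prl, the prolactin gene of the pituitary, was lower in FR30 HF. Its signal was 240.5 ± 15.1 in the FR30 HF sample and 313 ± 11.6 in the FR30 standard sample, a difference of -0.75, and 159 ± 7.14 in the control HF sample and 759 ± 17.7 in the control standard sample, where it was not detected in control HF. The Prl difference of the control pair was thus a bound, at least 12.7-fold lower. Lhb, the luteinizing hormone beta subunit, was detected in FR30 standard and control standard but in neither HF sample, with 171 in the FR30 HF sample and 192 in the FR30 standard sample. Cga and Pou1f1, 2 further genes of pituitary hormone cells, were not detected in either FR30 sample. The 8 detected genes of the anterior pituitary list had 6 above 0 and a median of 0.07, with Pomc past 1.2-fold on the higher side and Prl on the lower. The summed signal of the 4 defining pituitary markers on the array was 721 in FR30 HF and 809 in FR30 standard, against 621 in control HF and 1283 in control standard, and the part of pituitary tissue in the result was not tested.

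Globin genes, abundant in young red cells, were higher on HF diet in both prenatal groups. Hbb, a beta-globin gene, had 9337 ± 411 in the FR30 HF sample and 5340.1 ± 127 in the FR30 standard sample, a difference of 0.86. The control samples gave 8350.1 ± 85.5 in the control HF sample and 4559 ± 94.8 in the control standard sample, a difference of 0.88, so that both HF samples lay above both standard samples. Hba-a2, an alpha-globin gene, was higher on HF diet too, by 0.51 in FR30 offspring and by 0.55 in controls. Hba-a3, a further alpha-globin gene, had 462 ± 14.9 in the FR30 HF sample. In the FR30 standard sample it had 213 ± 3.10, near the detection limit. The difference was 4.08-fold, or log2 2.03, and ran from log2 1.12 to 2.04 over the processing settings tried. Hba-a3 was not detected in control standard. Globin genes are near-identical copies whose probes may share transcripts, so the single values are uncertain. Of 13 detected genes of globin and haem synthesis 10 were above 0 and these 3 globins passed 1.2-fold, with a median of 0.08. Alas2, the haem enzyme of red cells, was not detected in either FR30 sample, and the part of blood left in the tissue was not tested.

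Thalamus markers were the list with the lowest median, -0.15, with 13 of 15 detected members below 0 and 5 past 1.2-fold on that side. Over all genes of the FR30 pair, 51% were below 0 and 2.37% past 1.2-fold lower. In the authors' normalized signals 2 members were past it, and the median ran from -0.18 to -0.08 over the settings. Tcf7l2, a transcription factor of thalamic neurons, had 340.4 ± 16.8 in the FR30 HF sample and 433 ± 11.7 in the FR30 standard sample and differed by -0.51. Rgs16, a regulator of G-protein signalling, was at -0.45 and Ntng1, an axon guidance protein, at -0.27. The control pair had a lower median still, -0.43, with 11 of 16 members past 1.2-fold lower (4.96% of all genes there). The summed signal of the 4 defining thalamus markers was 2201 in FR30 HF and 2379 in FR30 standard, against 1821 in control HF and 2451 in control standard. Both HF samples were therefore below both standard samples, and the part of thalamic tissue at the edge of the dissection was not tested. Meningeal and vascular matrix genes, by contrast, had a median of 0.01 in FR30 offspring, with 16 above and 15 below 0, and of -0.27 in controls.

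**Figure D3:**
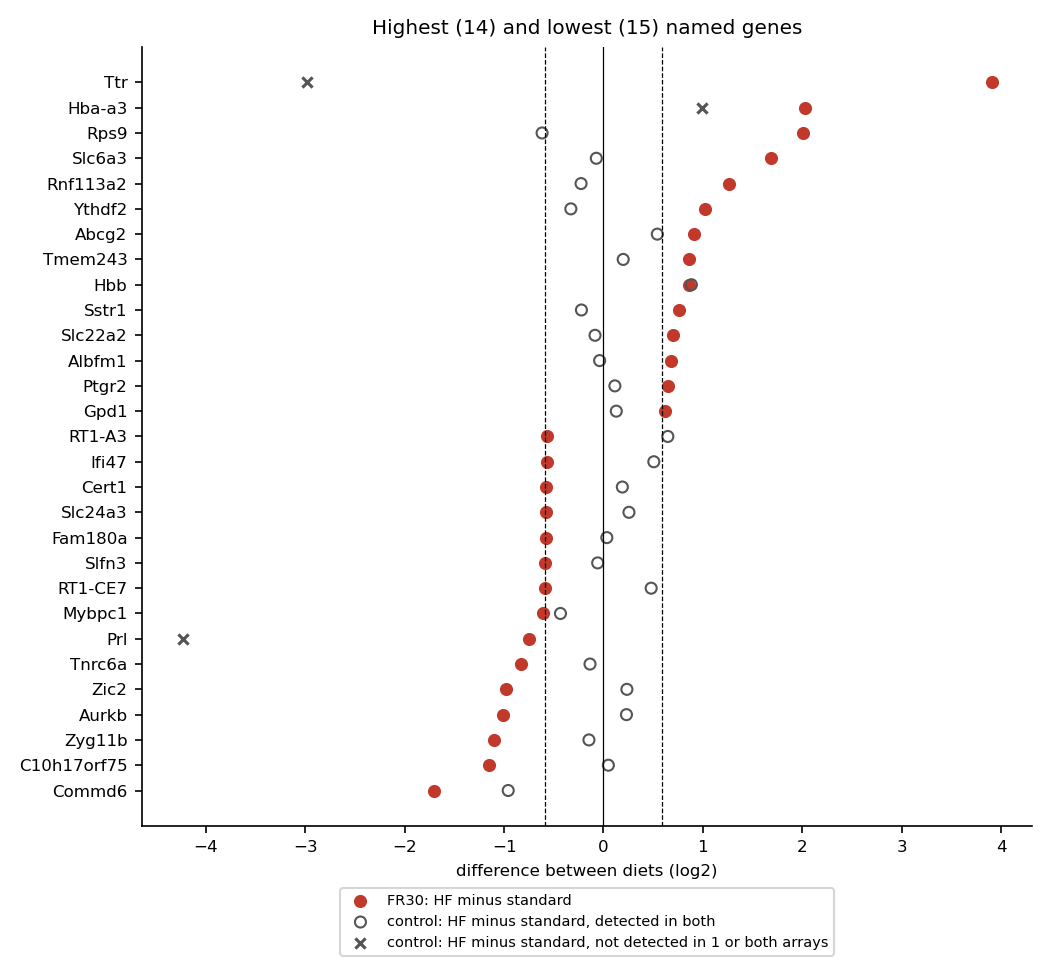
Named genes with the highest (14) and the lowest (15) differences are listed down the page from highest to lowest, with the log2 difference on the horizontal axis. Red points are FR30 HF minus FR30 standard, open circles and crosses the same difference between the control samples (crosses where 1 or both control samples were below detection), and dashed lines mark 1.5-fold. Hbb, Abcg2, Commd6 and Mybpc1 lie on the same side in both pairs, while RT1-A3, RT1-CE7 and Ifi47 lie on opposite sides.

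Of the genes for protein and RNA handling, Rps9, a protein of the small ribosomal subunit, stood furthest out. Its brighter probe had 4114 ± 90.5 in the FR30 HF sample and 1098 ± 136 in the FR30 standard sample, a 4.02-fold difference, and a dimmer probe, at 1952 against 212, gave a difference of 4.54. The control pair gave 2329 ± 87.2 in the control HF sample and 3653 ± 159 in the control standard sample, so that the FR30 standard sample was the lowest of the 4 and the control difference had the other sign (-0.62). The locus RGD1564649, which has no gene name here, had a similar profile, with 3148 ± 123 in the FR30 HF sample and 266 ± 11.4 in the FR30 standard sample and 1509 ± 46.6 in the control HF sample and 2711 ± 98.0 in the control standard sample, and the largest difference of any detected gene, 4.47. Ribosomal protein genes have many near-identical copies, so that a probe may read more than 1 locus. The other ribosomal proteins differed far less: 49 of the 64 detected were above 0 (48.6% of all genes were) with a median of 0.05, which is 0.05 without Rps9 too. Rpl30 was the other member past 1.2-fold, at 0.27, with 8012 ± 39.1 in the FR30 HF sample and 6726 ± 195 in the FR30 standard sample. Mitochondrial ribosomal proteins (54 detected, median 0.00) and translation factors (28 detected, median 0.02) had none past 1.2-fold.

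Ythdf2, which binds m6A-methylated RNA and leads it to decay, had 1663 ± 46.7 in the FR30 HF sample and 883 ± 5.26 in the FR30 standard sample, a 2.04-fold difference. Its control samples had 1159.6 ± 7.64 in the control HF sample and 1418 ± 48.7 in the control standard sample, and FR30 standard was the lowest of the 4. Tnrc6a, a GW182 protein of the microRNA silencing complex, was lower, with 203 ± 4.19 in the FR30 HF sample and 257 ± 4.68 in the FR30 standard sample, a difference of -0.83, which was -0.34 in the authors' normalized signals. Here FR30 HF alone stood apart, since the other 3 samples lay between 257 and 279. The Argonaute genes Ago1 (-0.33) and Ago2 (-0.25), which hold the microRNA, were also below 0, while Tarbp2, a partner of the microRNA-processing enzyme Dicer, was at 0.28. Other readers, writers and erasers of m6A lay nearer to 0, among them Fto at -0.12. Rnf113a2, a ring-finger protein of the splicing machinery in its human form RNF113A, had 567 ± 9.28 in the FR30 HF sample and 314 ± 12.8 in the FR30 standard sample, a 2.40-fold difference, and the control samples lay between, at 402 and 449.

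Several enzymes and carriers were past 1.5-fold on the higher side. Abcg2, an efflux pump of the blood-brain barrier, had 1165 ± 35.1 in the FR30 HF sample and 683 ± 23.9 in the FR30 standard sample, a difference of 0.91, and was also higher in control HF than control standard by 0.54. Of 23 detected endothelial and pericyte genes, Abcg2 included, 15 were below 0, with a median of -0.04. Slc22a2, an organic cation transporter, had 252 ± 5.30 in the FR30 HF sample and 206 ± 3.61 in the FR30 standard sample, near the detection limit in all samples. Tmem243, a transmembrane protein, had 502 ± 7.31 in the FR30 HF sample and 335 ± 19.2 in the FR30 standard sample, and FR30 standard was the lowest of the 4 samples. Albfm1, of which no role is given here, differed by 0.68. Gpd1, the cytosolic glycerol-3-phosphate dehydrogenase that links glycolysis to lipid synthesis, had 860.5 ± 24.5 in the FR30 HF sample and 598 ± 2.63 in the FR30 standard sample and differed by 0.62. FR30 HF was the highest of the 4 samples for Gpd1, with control HF and control standard at 531 and 497.

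Ptgr2, a reductase of prostaglandin breakdown products, differed by 0.65 and Gpx2, a glutathione peroxidase better known from the gut, by 0.62. Sult1a1, a sulfotransferase of phenols and catecholamines, was just outside 1.5-fold at 0.56, with 748 ± 8.70 in the FR30 HF sample and 554 ± 25.6 in the FR30 standard sample and controls at 541 and 568. These values put FR30 HF above the 3 other samples for Sult1a1. Gsta4, which conjugates lipid peroxidation products to glutathione, was at 0.40, the 1 member past 1.2-fold among 39 detected genes of the antioxidant list, which does not hold Gpx2. Cyp26b1, which breaks down retinoic acid, and Cyp1b1 were the 2 of 20 detected cytochromes P450 past 1.2-fold, at 0.53 and 0.40, and 15 of the 20 were above 0. Of all genes 48.6% were above 0 and 2.17% past 1.2-fold higher.

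The lists of lipid and energy genes, the usual readouts of a high-fat diet, differed little. They do not hold Gpd1 (0.62) or the ceramide carrier Cert1 (-0.58). Of 53 detected genes of fatty acid synthesis, oxidation and sensing 34 were above 0 with a median of 0.03, and 1 passed 1.2-fold. That gene was Cd36, a fatty acid transporter and sensor, with 288 ± 9.48 in the FR30 HF sample and 328 ± 12.7 in the FR30 standard sample, a difference of -0.34, and a second probe gave -0.75. In controls Cd36 had the other sign, 0.48. Acads, the short-chain acyl-CoA dehydrogenase, was at 0.25, and Mgll, which splits monoacylglycerols and the endocannabinoid 2-AG, at -0.23. In cholesterol synthesis, Sc5d, the sterol desaturase, had 2555 ± 58.9 in the FR30 HF sample and 1938 ± 33.9 in the FR30 standard sample, a difference of 0.43, but both control samples were brighter, at 3358 and 3392. Stard4, a cholesterol carrier, was at 0.27, and the 31 genes of that list had 20 below 0 and a median of -0.01.

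Oxidative phosphorylation was evenly split, with 25 subunits above and 26 below 0 among 53 detected and none past 1.2-fold. The 23 citric acid cycle genes and the 25 genes of glycolysis and fuel transport likewise had none past 1.2-fold, with medians of 0.01 and 0.02. Endoplasmic reticulum stress genes had 13 of 25 above 0 and none past 1.2-fold. Calr, a calcium-binding chaperone, was the furthest of these at 0.20. Of the 38 proteasome subunits Psmd8 (0.30) and Psma3 (-0.39) passed 1.2-fold in opposite directions, and both had signals near the detection limit.

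On the lower side, Commd6, a small protein of the Commander complex that sorts membrane cargo, had the lowest difference of a named gene. Its signal was 194 ± 0.672 in the FR30 HF sample and 328 ± 6.58 in the FR30 standard sample, a difference of -1.71, which was -0.76 in the authors' normalized signals, and control HF was also below control standard, at 207 and 276. Both HF samples were therefore below both standard samples. The other 14 detected genes of the COMMD and copper list lay between -0.34 for Atp7a, a copper-exporting ATPase, and 0.18 for Ccdc93, a further Commander protein, and the list median was -0.02. Zyg11b, a substrate-recognition subunit of a ubiquitin ligase, had 344 ± 7.59 in the FR30 HF sample and 586 ± 26.9 in the FR30 standard sample, a difference of -1.10, and here FR30 standard stood alone above 3 samples between 344 and 370.5. A second Zyg11b probe was below detection. C10h17orf75, of which no role is given here, had 222 ± 3.86 in the FR30 HF sample and 330.2 ± 9.64 in the FR30 standard sample, and for this gene FR30 HF stood alone below 3 samples between 325 and 331.

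Aurkb, the kinase that corrects chromosome attachment in mitosis, had 567 ± 30.6 in the FR30 HF sample and 1000.0 ± 32.3 in the FR30 standard sample, a difference of -1.01. Both control samples were brighter still, at 1855 and 1600.1, and a second probe was below detection. Its partners in the chromosomal passenger complex differed less, with Cdca8 at 0.25 and Incenp at -0.22, both near the detection limit. The 16 detected cell cycle genes split 7 above and 9 below 0. Zic2, a zinc finger transcription factor of the developing forebrain, had 295 ± 9.83 in the FR30 HF sample and 452 ± 19.1 in the FR30 standard sample, a difference of -0.98, and FR30 standard stood alone above the 3 other samples, between 290.3 and 317. Its relative Zic1 was at -0.32 and Lhx6, a transcription factor of a class of GABA neurons, at -0.34. These 3 were the members past 1.2-fold among 22 detected transcription factors of hypothalamic nuclei, whose median was -0.01.

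Further down the order, Mybpc1, a myosin-binding protein, differed by -0.61 in FR30 offspring and by -0.43 in controls. Slfn3, a Schlafen family gene, was at -0.59, with its other probe below detection. Slc24a3, a sodium-calcium exchanger, had 221 ± 7.89 in the FR30 HF sample and 264 ± 12.4 in the FR30 standard sample, and Cert1, which carries ceramide between membranes, had 306 ± 12.6 in the FR30 HF sample and 389.9 ± 10.5 in the FR30 standard sample, with differences of -0.58 and -0.58. For Fam180a (197 ± 11.9 against 227 ± 5.20) and RT1-CE7 (294 ± 15.7 against 376 ± 38.5) the FR30 signals lay within 2 deposited SDs of each other on either side.

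Immune recognition and interferon genes gave the next group on the lower side. Of 14 detected genes of histocompatibility and antigen presentation 10 were below 0 (51% of all genes were), with a median of -0.07 against 0.07 in controls. RT1-A3, a rat class I gene, had 482 ± 26.9 in the FR30 HF sample and 642 ± 24.8 in the FR30 standard sample, a difference of -0.57, and 918 ± 32.2 in the control HF sample and 627 ± 24.7 in the control standard sample, a difference of 0.65. RT1-A1 (-0.32) and RT1-S3 (-0.35) were also past 1.2-fold lower, and RT1-A2 had the other sign in FR30 offspring (0.40) and in controls (-1.49). The RT1 genes are near-identical copies that vary between rats, so a probe can differ with the allele or read several copies. Tap1, which loads peptides onto class I proteins, and B2m, their shared light chain, differed by -0.10 and 0.03.

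Among 15 detected interferon-induced genes 9 were below 0 and 4 passed 1.2-fold, all on that side, with a median of -0.10 (-0.08 in controls). Of all genes of the FR30 pair, 51% were below 0, so the 9 of 15 is near that share, and 2.37% were past 1.2-fold lower. In the authors' normalized signals 1 of the 15 was past 1.2-fold, and the median ran from -0.12 to -0.04 over the settings. Ifi47, an interferon-induced GTPase, had 203 ± 5.58 in the FR30 HF sample and 237 ± 4.95 in the FR30 standard sample, a difference of -0.57 against 0.51 between the control samples. Mx1, an antiviral GTPase, had 268 ± 5.04 in the FR30 HF sample and 327 ± 9.32 in the FR30 standard sample, a difference of -0.53 with -0.39 in controls. Mx2 was at -0.33 and Irf7, the transcription factor that amplifies the type I interferon response, at -0.33. Gbp2, a guanylate-binding protein, was the highest of the list at 0.18, so the list was split. Microglial and inflammation genes leaned the other way, with 17 of 23 above 0 (48.6% of all genes were), a median of 0.06 and none past 1.2-fold. The control pair had 22 of 23 above 0, a median of 0.20 and 8 past 1.2-fold higher. Among all genes of that pair, 53.8% were above 0 and 3% past 1.2-fold higher.

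Interferon acts through a promoter element, the ISRE, searched as GAAA, 2 bases of any kind and GAAA again, on both strands of the RefSeq promoters of the GRCr8 assembly, from 250 bases before to 50 bases after the gene start. These letters were in 8 of 13 list members with a promoter in that table and in 3.92% of all 33469 promoters. Of the 8 with the letters 4 were above and 4 below 0, and of the 5 without them 1 was above and 4 below. The promoters of Irf7 and Ifitm3 (an antiviral membrane protein, -0.13), both below 0, of Gbp2, above 0, and of Ifi47, lowest of the list, are shown because they span that range. Capitals mark the match, which is a description of these letters and not a site or a cause, and Ifi47 has none in this window. They lie at chr1:205799974-205800273 (minus strand), chr1:205541709-205542008 (minus strand), chr2:234005477-234005776 (plus strand) and chr10:33798494-33798793 (plus strand) and are written 5′ to 3′ on the strand of the gene.
Irf7: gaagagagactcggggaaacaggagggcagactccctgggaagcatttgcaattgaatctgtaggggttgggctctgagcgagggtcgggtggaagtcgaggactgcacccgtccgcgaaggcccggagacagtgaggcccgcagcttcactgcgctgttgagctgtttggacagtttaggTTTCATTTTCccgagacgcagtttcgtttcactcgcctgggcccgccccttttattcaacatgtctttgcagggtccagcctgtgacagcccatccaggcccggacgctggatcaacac
Ifitm3: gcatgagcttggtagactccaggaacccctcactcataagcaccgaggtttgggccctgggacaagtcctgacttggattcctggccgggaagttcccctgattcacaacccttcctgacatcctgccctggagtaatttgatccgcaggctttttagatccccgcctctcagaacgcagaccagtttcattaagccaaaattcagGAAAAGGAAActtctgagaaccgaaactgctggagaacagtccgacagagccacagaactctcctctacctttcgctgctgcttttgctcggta
Gbp2: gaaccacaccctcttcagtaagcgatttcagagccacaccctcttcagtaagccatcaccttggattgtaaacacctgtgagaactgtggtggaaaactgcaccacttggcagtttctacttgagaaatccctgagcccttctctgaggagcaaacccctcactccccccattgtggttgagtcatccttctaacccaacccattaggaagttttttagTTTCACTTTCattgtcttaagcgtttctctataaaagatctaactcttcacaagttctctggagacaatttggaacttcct
Ifi47: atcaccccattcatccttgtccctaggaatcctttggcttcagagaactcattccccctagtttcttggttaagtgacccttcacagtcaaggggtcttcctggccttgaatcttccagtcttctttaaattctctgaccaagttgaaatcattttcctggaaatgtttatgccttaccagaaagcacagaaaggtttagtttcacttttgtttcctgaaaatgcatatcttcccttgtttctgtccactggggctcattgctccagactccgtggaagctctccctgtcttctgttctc

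Genes of synaptic transmission lay mostly below 0, by small amounts. Of 18 detected GABA genes 14 were below 0 (median -0.07), and Gabbr1, a subunit of the metabotropic GABA receptor, had 656 ± 23.8 in the FR30 HF sample and 822 ± 16.2 in the FR30 standard sample, a difference of -0.39. Gad2, a GABA-synthesising enzyme, was at -0.25 and Slc32a1, the vesicular GABA transporter, at -0.18. Over all genes, 51% were below 0. Of 21 detected glutamate genes 18 were below 0 (median -0.09), and Grm2, an inhibitory metabotropic receptor, was at -0.39 with 397 ± 17.5 in the FR30 HF sample and 479 ± 29.8 in the FR30 standard sample. Grin2a, an NMDA receptor subunit, was at -0.32, and Slc1a4, a neutral amino acid transporter, stood on the other side at 0.31. In the control pair 9 of 18 GABA and 12 of 23 glutamate genes were below 0, against 45.8% of all genes there. Grm2 had the other sign there, 0.39, and Gad2 the same one, -0.40.

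Ion channels and the vesicle machinery also lay mostly below 0, in both diet pairs. Of all genes, 51% were below 0 in the FR30 pair and 45.8% in the control pair. Of 20 detected sodium, calcium and HCN channel subunits 18 were below 0 (median -0.08) and none passed 1.2-fold, with Cacna1c, an L-type calcium channel, furthest out at -0.24. In controls 14 of 22 were below 0 (median -0.07). Of 26 potassium channel subunits 16 were below 0 (18 of 24 in controls, with medians of -0.05 in FR30 offspring and -0.09 in controls), and Kcnk3, a leak channel, was at -0.30, against -0.21 in controls. Of 30 vesicle release genes 21 were below 0 (20 of 31 in controls), and Rab3a, a vesicle GTPase, had 705 ± 4.06 in the FR30 HF sample and 853 ± 23.7 in the FR30 standard sample, a difference of -0.32, while the control samples had 671 and 669. Syn2, a synapsin, was at -0.32. Of 28 G-protein signalling genes 20 were below 0 (19 of 28 in controls), and of 31 axon and cytoskeleton genes 23 (15 of 31 in controls), with Kif5c, a motor of axonal transport, at -0.35, although its dimmer probe gave 0.14. The neuronal markers Snap25, Syt1, Eno2 and Rbfox3 lay at -0.03, -0.04, 0.02 and 0.13. Rbfox3 was near the detection limit, with 211 in FR30 HF and 205 in FR30 standard. The summed signal of these 4 neuron markers was 49327 in FR30 HF and 49248 in FR30 standard.

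**Figure D4:**
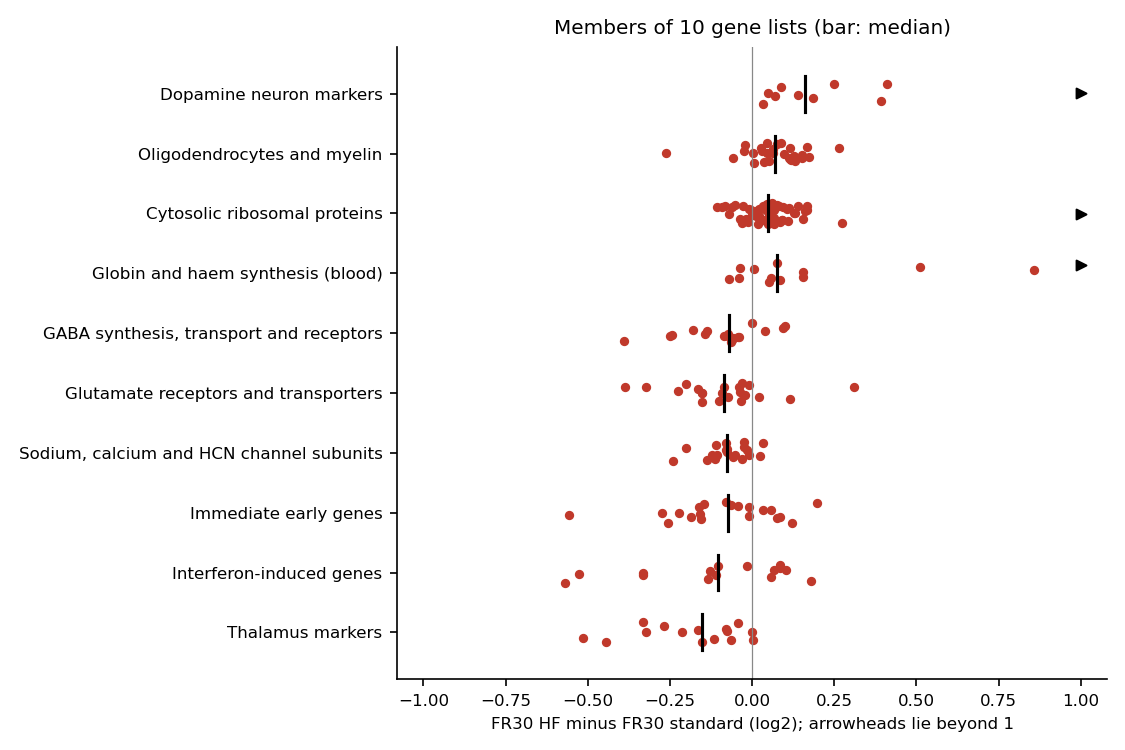
Each point is a detected member of 1 of 10 gene lists, placed by its FR30 HF minus FR30 standard difference (horizontal axis, log2), with a black bar at the list median. Arrowheads at the right edge are Slc6a3, Rps9 and Hba-a3, which lie beyond 1. Dopamine markers lie wholly above 0, and most sodium, calcium and HCN channel subunits and thalamus markers lie below it.

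Immediate early genes, which neuronal activity induces within minutes, had 14 of 20 detected members below 0 and a median of -0.07, against 10 of 20 in controls. Among all genes, 51% of the FR30 pair and 45.8% of the control pair were below 0. In the authors' normalized signals none of the 20 was past 1.2-fold. Fos, the best known of them, had 223 ± 9.70 in the FR30 HF sample and 266 ± 28.1 in the FR30 standard sample, a difference of -0.56 within 2 deposited SDs on either side, and 218 ± 7.13 in the control HF sample and 232 ± 11.9 in the control standard sample. Both HF samples were below both standard samples for Fos. Ier2 was at -0.28, Junb, a partner of Fos in the AP-1 factor, at -0.25, and Arc, a synaptic protein of plasticity, at -0.22. These genes are near the detection limit, Junb less so with 464 ± 13.8 in the FR30 HF sample and 531 ± 33.5 in the FR30 standard sample. Ier5 was the highest of the list at 0.20, and its other probe gave -0.03.

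The cyclic AMP response element, through which CREB acts on such genes, was searched as TGACGTCA, which reads the same on both strands, in the same promoters. It was in 5 of 15 members with a promoter in the table and in 1.83% of all promoters, and of these 5 members 4 were below and 1 above 0. Of the 10 without it 5 were below and 5 above. The promoters of Ier2 and of Dusp1, a phosphatase that shuts off MAP kinases (-0.16), are shown because they are the lowest members that hold the letters. They lie at chr19:40399123-40399422 and chr10:17184603-17184902, both on the plus strand of GRCr8, with the match in capitals.
Ier2: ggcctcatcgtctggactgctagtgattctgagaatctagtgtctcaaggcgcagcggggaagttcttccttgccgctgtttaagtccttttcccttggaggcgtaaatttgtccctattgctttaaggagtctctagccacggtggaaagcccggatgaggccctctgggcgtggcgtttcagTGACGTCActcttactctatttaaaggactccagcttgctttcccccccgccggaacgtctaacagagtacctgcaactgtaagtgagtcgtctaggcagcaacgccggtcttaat
Dusp1: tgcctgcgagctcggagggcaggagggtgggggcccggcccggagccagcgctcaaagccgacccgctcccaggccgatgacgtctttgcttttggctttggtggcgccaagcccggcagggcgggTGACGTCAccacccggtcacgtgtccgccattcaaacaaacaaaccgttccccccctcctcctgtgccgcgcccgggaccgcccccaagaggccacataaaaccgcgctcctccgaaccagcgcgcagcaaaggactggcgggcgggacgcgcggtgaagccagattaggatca

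Clock genes had 10 of 13 detected members below 0 (51% of all genes were), with a median of -0.05 and none past 1.2-fold. Rora, a nuclear receptor of the clock that is also a thalamus marker, was at -0.21, and Npas2 at -0.19. Of 20 genes of glucocorticoid action 13 were above 0 (48.6% of all genes were), with Sult1a1 alone past 1.2-fold. Sgk1, a glucocorticoid-induced kinase, was at 0.17 and the receptor Nr3c1 at 0.05. The control pair had 5 of 20 past 1.2-fold on the higher side (3% of all genes there). In thyroid hormone action, the receptor Thrb was at -0.25 (-0.40 in controls). Dio2, which makes the active hormone, was at 0.20 (-0.21 in controls), with signals near the detection limit.

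Oligodendrocyte and myelin genes leaned above 0, with 24 of 28 detected members there and a median of 0.07, against -0.03 in controls. Of all genes, 48.6% were above 0 in the FR30 pair and 53.8% in the control pair. Mag, an adhesion protein of the inner myelin layer, was the 1 member past 1.2-fold, with 356 ± 13.8 in the FR30 HF sample and 321 ± 23.9 in the FR30 standard sample, a difference of 0.26 within the deposited SDs. Qdpr, which regenerates tetrahydrobiopterin and is rich in oligodendrocytes, had 5254 ± 179 in the FR30 HF sample and 4642 ± 119.7 in the FR30 standard sample, a difference of 0.17. Mbp, which compacts the myelin sheath, was at 0.00. Cspg4, a marker of oligodendrocyte precursors and pericytes, was on the other side at -0.26. Astrocyte and tanycyte genes had a median of 0.00, with Gfap, their filament protein, at -0.13, S100b, a calcium-binding protein, at 0.23 and the progenitor transcription factor Sox2 at -0.40. Of the ependymal and cilia genes Ttc30a1, a ciliary transport protein, was past 1.2-fold at 0.44, although both control samples were brighter than FR30 HF, at 342 and 344.

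**Figure D5:**
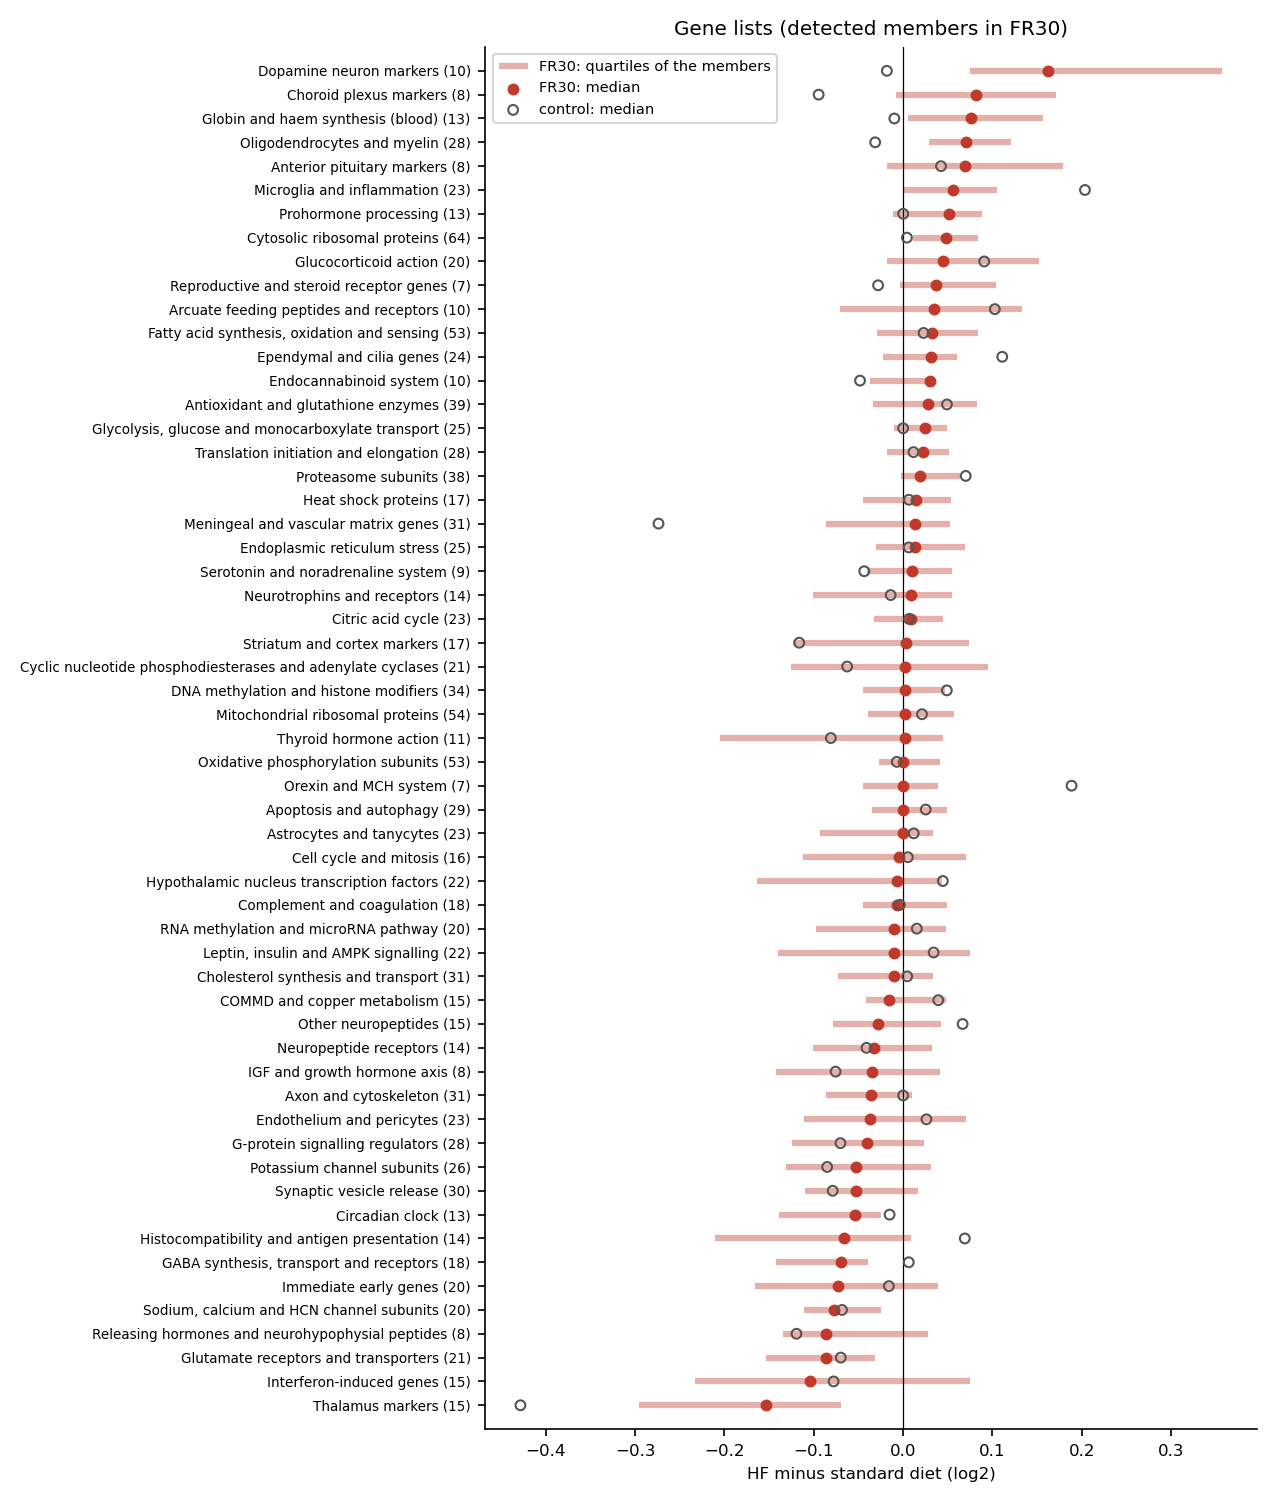
Each row is 1 of 57 gene lists, with the number of members detected in both FR30 samples in parentheses, sorted by the median FR30 HF minus FR30 standard difference (horizontal axis, log2). Red points are FR30 medians, pink bars run between the quartiles of the members, and open circles are the medians of the control pair. Dopamine markers have the highest FR30 median and thalamus markers the lowest, and most lists lie within 0.1 of 0.

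Some genes were detected in only 1 of the FR30 samples, 241 in FR30 HF and 121 in FR30 standard, and have a bound in place of a difference. Plekhf2, an endosomal protein, was detected in FR30 HF only, at 292 in the FR30 HF sample and 178 in the FR30 standard sample, and was at least 2.79-fold higher. Alox15, a lipoxygenase of polyunsaturated fatty acids, was at least 2.40-fold higher and Sostdc1, a secreted BMP and Wnt antagonist of the choroid plexus list, at least 2.25-fold. The other bounds with the largest size were for Cyp4b1, a cytochrome P450 (at least 2.20-fold), and Ahsp, the chaperone of alpha-globin in red cells (at least 1.65-fold). Detected in FR30 standard only, Enpp6, a choline-releasing enzyme of new oligodendrocytes, had 187 in the FR30 HF sample and 222 in the FR30 standard sample and was at least 1.64-fold lower in FR30 HF. Cacna1h, a T-type calcium channel, followed with a smaller bound. Among all these genes 8 of the 241 and 1 of the 121 had a bound past 1.5-fold.

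The diet pair of the control offspring shares no sample with the FR30 pair, and its values stand beside the FR30 ones as a description. In it 61 of 10398 detected genes (0.587%) passed 1.5-fold, 15 higher (0.144%) and 46 lower (0.442%). Across the 10100 genes detected in all 4 samples, which are not independent replicates, the differences of both pairs correlated with Pearson's r of 0.0976 and Spearman's rho of 0.119. Of the 18 genes at least 1.5-fold higher in FR30 HF and detected in all 4 samples, 3 were past 1.2-fold higher in control HF and 5 past 1.2-fold lower. Of the 12 lower ones, 2 were past 1.2-fold lower and 2 past 1.2-fold higher. Over all genes of the control pair, 3% were past 1.2-fold higher and 4.96% past 1.2-fold lower. At 1.2-fold, 457 of the 10100 genes passed in the FR30 pair and 785 in the control pair. Past it in both pairs, 25 genes were higher in both and 60 lower in both. A further 18 were higher in the FR30 pair and lower in the control pair, and 27 the reverse. Hbb, Hba-a2, Abcg2 and the locus MGC72973 (0.85 and 0.81) had the same side in both pairs, as did Commd6, Mybpc1 and Tcf7l2 on the lower side. Slc6a3, Zic2, Tnrc6a and C10h17orf75 differed in the FR30 pair with control differences between -0.14 and 0.24. Whether the response to the diet differed between the prenatal groups was not tested, since each group is 1 sample.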

How the data were processed

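Hypothalamic total RNA was measured in 4 samples, 1 per group, and groups were taken from the sample labels. The submitters' processing notes name GenomeStudio. In the non-normalized table the authors deposited a bead intensity and a detection p-value for each probe. In the normalized table they deposited the intensity after a normalization whose method the sources used here do not give, with an SD and again a detection p-value, per the file headers. Those normalized intensities are the signals printed. On arrays it is the number of samples that limits precision.

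The non-normalized table was turned into log2 values by neqc of limma 3.58.1 in R 4.3.3 over all 4 arrays, with background correction through detection p-values, an offset of 16 and quantile normalization. The brightest probe over the arrays stood for a gene. Symbols were matched to RefSeq names (10291 probes current, 4966 older, 1642 through a gene number, 5495 kept as in the file, 117 without a symbol, 12 holding a date). Genes with a detection p under 0.01 in both FR30 samples were described by size (1.5-fold, or 1.2-fold for lists), and those detected in 1 have a bound. No test was made. The steps were tested on simulated data.

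The genes named are the 15 highest and 15 lowest, the 5 largest bounds each way, up to 5 members of each of 57 lists, the tissue markers and a fixed set of well-known genes. Genes beside the 1.5-fold boundary, a few further list members, loci without a name and family members were named after their values were seen, and some genes that the rule names are not reported here. The comparison and the lists were chosen with earlier results of these data known. Alternatives in background correction, normalization, offset, detection limit, probe choice and size threshold are given at the end.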

Additional observations from a re-analysis of the deposited data

Results flagged for a closer look

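For 4 named genes and 2 loci without a gene name, the diet difference passed 1.5-fold in FR30 offspring and 1.2-fold with the other sign in control offspring. The gap between the differences was not tested, since each group is 1 sample. RGD1564649 was at 4.47 in the FR30 pair and -0.92 in the control pair, a gap of 5.39. In the FR30 pair Rps9 was at 2.01 and in the control pair at -0.62, a gap of 2.62. Ythdf2 was at 1.03 in the FR30 pair and -0.33 in the control pair, a gap of 1.35. Gpx2 was at 0.62 in the FR30 pair and -0.27 in the control pair, a gap of 0.89. RT1-CE7 was at -0.59 in the FR30 pair and 0.48 in the control pair, a gap of -1.07. The locus RGD1560364 was at -0.61 in the FR30 pair and 0.38 in the control pair, a gap of -0.99. In the authors' normalized signals the FR30 differences of Gpx2 (0.27), RT1-CE7 (-0.35) and RGD1560364 (-0.24) were inside 1.5-fold. RT1-CE7 lay within 2 deposited SDs on either side in both pairs, with 371 ± 61.0 in control HF and 303 ± 46.7 in control standard. RGD1560364 was near the detection limit, with 205 in FR30 HF and 241 in FR30 standard.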

How the results depend on the processing

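The 33 genes past 1.5-fold kept their direction under each of the 9 other processing settings in which they had a value, but their number depended on the setting. With the authors' normalized signals 19 genes passed (13 higher, 6 lower), 17 of them among the 33. With quantile normalization and no background correction 19 passed (12 higher, 7 lower), all among the 33. A detection limit of p under 0.05 gave 50 (31 higher), and leaving out the dimmest of 4 brightness groups gave 20 (5 lower). A 2-fold threshold left 12 (7 higher, 5 lower), and a 1.2-fold threshold gave 462 (221 higher, 241 lower). Over the settings Ttr ran from 2.58 to 3.92. Median scaling moved the median of all genes to -0.01. The median of the serotonin and noradrenaline genes, 0.01, turned to -0.0082 under median scaling and -0.0033 for brighter genes, and in all 11 lists with medians no further than 0.04 from 0 crossed 0 under some setting. No paired analysis was possible because each group holds 1 sample, and for the same reason no replicate could be left out.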

Other observations

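Loci without a gene name took more than their share of the differences. Of 1254 detected genes whose symbol starts with LOC, RGD or MGC, 5.82% were past 1.2-fold higher and 3.91% past 1.2-fold lower, against 1.66% and 2.15% of the 8923 other genes. Past 1.5-fold were RGD1564649 (4.47), MGC72973 (0.85) and LOC501172 (0.66) on the higher side, and RGD1562971 (-1.48), LOC499408 (-0.69) and RGD1560364 (-0.61) on the lower. LOC499408 had signals of 922 ± 39.7 in FR30 HF and 1399 ± 25.3 in FR30 standard, against 211 ± 4.80 in control HF and 221 ± 0.981 in control standard, so that both FR30 samples stood far above both control samples.

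Families grouped by symbol gave further values, chosen after they were seen. Over all genes of the FR30 pair, 51% were below 0, 2.17% past 1.2-fold higher and 2.37% past 1.2-fold lower. Of 16 detected kinesins, the motors that walk along microtubules, 15 were below 0 with a median of -0.05. Of 25 detected cadherins and protocadherins, which join cells at synapses and elsewhere, 20 were below 0 with a median of -0.06, and none passed 1.2-fold. Of 40 detected Rab GTPase genes, which steer vesicle traffic, 29 were below 0 with a median of -0.03. Of 187 solute carriers 94 were above and 93 below 0, and 11 passed 1.2-fold on the higher side against 3 on the lower.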
